A study of Mus musculus with 40 samples.

Results

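The tumour suppressor p53, encoded by Trp53, and 9 genes it is known to activate were followed by RNA sequencing across mouse embryonic stem cell lines. The 10 genes were chosen by name as textbook p53 pathway genes, by a rule that used no measured value, though earlier results of these data were known when the list was drawn up. They are Trp53 itself, Mdm2, Cdkn1a, Ccng1, Bax, Bbc3, Phlda3, Sesn2, Trp53inp1 and Zmat3, and they stand among 55391 distinct gene symbols in the deposited count tables. All 10 passed the filter on low counts in each of the 3 tables.

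The p53 protein is a transcription factor that is held low by the ubiquitin ligase Mdm2, its own target gene, and that accumulates after DNA damage and other stress. It binds pairs of short palindromic half-sites near its targets, which act in cell cycle arrest (Cdkn1a, Ccng1), apoptosis (Bax, Bbc3), restraint of Akt signalling (Phlda3), metabolism and oxidative stress (Sesn2), autophagy and p53 feedback (Trp53inp1) and RNA processing (Zmat3). In mouse embryonic stem cells p53 is also known as an activator of Dux, the transcription factor gene that drives the 2-cell-like state.

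RNA came from 34 libraries of E14tg2a, an established mouse embryonic stem cell line kept in serum and leukaemia inhibitory factor. In the genotype table, 2 libraries each came from wild-type cells (WT), cells without the corepressor genes Ctbp1 and Ctbp2 (CtbpDKO), cells without Dux (DuxKO), cells without all 3 of these genes (Ctbp_DuxTKO), cells without the chromatin factor gene Dppa2 (Dppa2KO) and CtbpDKO cells that also lack Dppa2 (DKO_Dppa2KO). A separate table, called the Pramel7 table here, covers 4 further WT libraries and pairs of libraries for DuxKO, for overexpression of Pramel7, a PRAME-family gene (P7OE), for the same overexpression in DuxKO cells (DuxKO_P7OE) and for knockout of Pramel7 (P7KO). In the last table CtbpDKO cells marked Dox were followed over time, with 2 libraries per day for days 0, 3, 9, 12 and 18. The sources used here do not state which agent Dox stands for or its timing. Each table was normalized on its own and tests were run only within a table. No label gives the clone of a knockout line, the promoter of an overexpressed gene, or whether replicates came from separate cultures, so p-values measure the spread between these libraries, which may be technical. Libraries held from 10123058 to 36025046 counts.

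The labels were read against the targeted genes. Ctbp1 stood at 64.1 and 68.8 CPM (the count scaled by the normalized library total) in WT and at most 0.2 CPM in the libraries labelled as Ctbp knockouts. In the time course, Ctbp2 stood at 58.9 and 59.3 CPM at day 0, 544 and 573 at day 3, 310 and 296 at day 9, 49.4 and 44.7 at day 12, and 52.4 and 54.7 at day 18, while Ctbp1 never passed 0.17 CPM. Dppa2 was reduced but present in Dppa2KO, at 33.3 and 29.1 CPM against 57.3 and 60.9 in WT, so the libraries labelled Dppa2KO keep Dppa2 RNA. Pramel7 stood at 14 and 26.2 CPM in P7OE and at 49.3 and 56.7 in DuxKO_P7OE, but at most 0.154 CPM in WT of that table, so its RNA could not check the P7KO label. Dux, listed as Duxf3, stood at 0.0335 and 0 CPM in WT and at 1.22 and 0.671 in CtbpDKO, and it had 0 counts, which allows up to 3, in both libraries of DuxKO, Ctbp_DuxTKO, Dppa2KO and DKO_Dppa2KO. WT of the genotype table was itself at or near 0, so Dux RNA could not check the DuxKO label there. For DKO_Dppa2KO the title and the description disagree on whether Dux or Ctbp was lost beside Dppa2. The group name follows the description, and Ctbp1 stood at 0.2 and 0 CPM there. In bulk RNA, fewer cells of a type and less RNA per cell cannot be told apart. Of 6 embryonic stem cell markers (Pou5f1, Sox2, Nanog, Zfp42, Esrrb and Klf4) none was at 0 in any group, with summed levels from 1351 to 2643 CPM.

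Promoter sequence is shown for the upstream start of Cdkn1a, whose window holds a full p53 site as defined below. It is also shown for Ccng1 and Mdm2, targets with a half-site that were called in 7 and 8 of the comparisons below. The motif is the 10-base p53 half-site consensus by name, which reads the same on both strands, searched in 300 bases from 250 before to 50 after each RefSeq transcription start (GRCm38.p6). Promoter sequence was matched for 8 of the 10 genes. A half-site is present in 8.36% of 32851 such promoters and a full site, meaning 2 half-sites up to 13 bases apart, in 0.0731%. The upstream start of Cdkn1a, at chr17:29090729-29090978, holds a full site of 32 bases that begins at position -73, counted from -1 at the base before the start. The window of the downstream Cdkn1a start, at chr17:29093519-29093818, holds no half-site. Ccng1, at chr11:40755287-40755536, holds 1 half-site that begins at -185, and Mdm2, at chr10:117710759-117711008, holds 1 that begins at -186. The 250 bases before each start follow, 5′ to 3′ on the strand of the gene, with the matched site in capitals.
Cdkn1a: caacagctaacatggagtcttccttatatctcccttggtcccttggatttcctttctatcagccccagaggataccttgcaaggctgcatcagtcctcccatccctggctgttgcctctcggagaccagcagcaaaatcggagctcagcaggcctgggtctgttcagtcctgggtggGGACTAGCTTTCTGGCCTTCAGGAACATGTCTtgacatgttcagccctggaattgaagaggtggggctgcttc
Ccng1: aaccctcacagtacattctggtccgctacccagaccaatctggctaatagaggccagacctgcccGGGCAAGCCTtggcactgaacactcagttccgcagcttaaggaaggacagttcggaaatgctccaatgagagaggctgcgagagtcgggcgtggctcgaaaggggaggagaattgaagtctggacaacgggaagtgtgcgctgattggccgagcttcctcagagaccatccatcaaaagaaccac
Mdm2: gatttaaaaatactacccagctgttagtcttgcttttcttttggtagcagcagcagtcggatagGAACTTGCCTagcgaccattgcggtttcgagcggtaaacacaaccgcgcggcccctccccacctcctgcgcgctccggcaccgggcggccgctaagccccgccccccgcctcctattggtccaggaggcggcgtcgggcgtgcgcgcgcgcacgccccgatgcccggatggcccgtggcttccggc
Bax holds AGGCAAGCTT from -201, and Trp53 holds GGACTTGCCC from -75. The windows of Bbc3, Phlda3 and Sesn2 hold none of these letters. A match is a string in the reference sequence, and p53 binding was not measured.

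Trp53 lies on chromosome 11 (chr11:69580348-69591873) and its RNA varied little across the genotype table. It stood at 368 and 416 CPM in WT, 365 and 374 in CtbpDKO, 449 and 447 in DuxKO, 288 and 368 in Ctbp_DuxTKO, 433 and 363 in Dppa2KO, and 370 and 380 in DKO_Dppa2KO. Only Ctbp_DuxTKO against DuxKO passed the test among the 7 pairs of groups compared, with Trp53 lower by a log2 change of -0.45 ± 0.12 (SE), an edgeR adjusted p of 0.0083 and no overlap between the groups. That call was lost without Ctbp_DuxTKO replicate 1, the library at 288 CPM, and the log2 change ran from -0.66 to -0.28 over the 4 libraries left out in turn. The processed pseudogene Trp53-ps took at most 1.8% as many counts as Trp53 in any library.

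Mdm2 (chr10:117688875-117710758), the ligase that targets p53, was lowest in WT and had its highest mean in DKO_Dppa2KO. It stood at 40.2 and 38.6 CPM in WT, 46.8 and 49 in CtbpDKO, 42.4 and 43.2 in DuxKO, 57.2 and 53.6 in Ctbp_DuxTKO, 46.6 and 46.7 in Dppa2KO, and 64.6 and 57.1 in DKO_Dppa2KO. Every mutant library was above both WT libraries. Mdm2 rose in CtbpDKO against WT by a log2 change of 0.28 ± 0.09 (edgeR adjusted p = 0.0345). It rose in Ctbp_DuxTKO against DuxKO by 0.37 ± 0.09 (edgeR adjusted p = 0.0049), in DKO_Dppa2KO against CtbpDKO by 0.34 ± 0.09 (edgeR adjusted p = 0.0212) and in DKO_Dppa2KO against Dppa2KO by 0.38 ± 0.09 (edgeR adjusted p = 0.00561). The first of these calls was lost without any 1 of its 4 libraries (0.23 to 0.31). The call in DKO_Dppa2KO against CtbpDKO was lost without either CtbpDKO library or DKO_Dppa2KO replicate 1 (0.25 to 0.43), and the call against Dppa2KO without DKO_Dppa2KO replicate 1 (0.29 to 0.47).

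Cdkn1a (chr17:29090979-29100722), the inhibitor of cyclin-dependent kinases that carries out much of the p53 arrest, was not called in any of the 17 pairwise comparisons of the 3 tables with all libraries and the filter on low counts. The 2 WT libraries of the genotype table lay far apart. In the genotype table it stood at 101 and 46.4 CPM in WT, 116 and 107 in CtbpDKO, 124 and 136 in DuxKO, 100 and 128 in Ctbp_DuxTKO, 118 and 118 in Dppa2KO, and 77.7 and 118 in DKO_Dppa2KO. Both libraries of CtbpDKO, DuxKO and Dppa2KO were above both of WT, and the level of WT replicate 2 set the size of the gap. The log2 change of DuxKO against WT was 0.81 ± 0.27 (edgeR adjusted p = 0.0524), and it was 1.49 without WT replicate 1 (edgeR adjusted p = 0.00103) and 0.36 without WT replicate 2. Likewise CtbpDKO against WT gave 0.59 ± 0.27 (edgeR adjusted p = 0.127), with 1.26 without WT replicate 1 (edgeR adjusted p = 0.00141) and 0.12 without WT replicate 2. Dppa2KO against WT gave 0.68 ± 0.27 (edgeR adjusted p = 0.105), with 1.35 without WT replicate 1 (edgeR adjusted p = 0.00323) and 0.22 without WT replicate 2. Without the filter on low counts, edgeR called Cdkn1a in all 3 (adjusted p of 2.59e-06 for CtbpDKO, 2.42e-11 for DuxKO and 9.05e-08 for Dppa2KO). Cdkn1a itself passes that filter, so its counts, with the WT libraries as far apart, were the same in both fits. These low p-values depend on which other genes enter the fit and add no data on Cdkn1a. The same holds for its unfiltered calls in the other tables.

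Ccng1 (chr11:40748552-40755309), the cyclin G1 gene, was highest where Ctbp and Dux were both lost. It stood at 57.6 and 54 CPM in WT, 66.2 and 70.6 in CtbpDKO, 48.4 and 52.3 in DuxKO, 109 and 95.4 in Ctbp_DuxTKO, 58 and 65.6 in Dppa2KO, and 79.9 and 91 in DKO_Dppa2KO. Neither Ctbp_DuxTKO library overlapped any other group. Ccng1 rose in Ctbp_DuxTKO against DuxKO by a log2 change of 1.02 ± 0.11 (edgeR adjusted p = 5.91e-06) and against CtbpDKO by 0.58 ± 0.10 (edgeR adjusted p = 0.00466). It also rose in DKO_Dppa2KO against Dppa2KO, by 0.47 ± 0.10 (edgeR adjusted p = 0.00423). The call against CtbpDKO was lost without CtbpDKO replicate 1 or Ctbp_DuxTKO replicate 1 (0.48 to 0.68), and the call against Dppa2KO without Dppa2KO replicate 1 or DKO_Dppa2KO replicate 2 (0.37 to 0.56).

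The apoptosis genes Bax and Bbc3 parted in CtbpDKO. Bax (chr7:45461695-45466903), whose protein permeabilises the mitochondrial outer membrane, stood at 78.3 and 85.8 CPM in WT, 62.2 and 54.6 in CtbpDKO, 89 and 86.3 in DuxKO, 83.2 and 68.6 in Ctbp_DuxTKO, 123 and 122 in Dppa2KO, and 80.1 and 80.6 in DKO_Dppa2KO. CtbpDKO was below and Dppa2KO above every other library. Bax fell in CtbpDKO against WT by 0.49 on the log2 scale (SE 0.10, edgeR adjusted p = 0.00333) and rose in Dppa2KO against WT by 0.58 ± 0.10 (edgeR adjusted p = 0.00247). It was lower in DKO_Dppa2KO than in Dppa2KO, with a log2 change of -0.61 ± 0.10 (edgeR adjusted p = 0.000636), and higher than in CtbpDKO by 0.46 ± 0.10 (edgeR adjusted p = 0.0101). It was higher in Ctbp_DuxTKO than in CtbpDKO by 0.38 ± 0.10 (edgeR adjusted p = 0.0417). The last call was lost without either CtbpDKO library or Ctbp_DuxTKO replicate 1 (0.23 to 0.51), and the one before it without CtbpDKO replicate 2 or DKO_Dppa2KO replicate 2 (0.38 to 0.58).

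Bbc3 (chr7:16308398-16318334), which encodes the BH3-only protein Puma, was lowest in WT. It stood at 17.6 and 17.1 CPM in WT, 25.8 and 21.2 in CtbpDKO, 22.9 and 22.6 in DuxKO, 23.9 and 29.2 in Ctbp_DuxTKO, 35 and 29.4 in Dppa2KO, and 29.5 and 35.8 in DKO_Dppa2KO. All 10 mutant libraries were above both WT libraries. Bbc3 rose in Dppa2KO against WT by a log2 change of 0.89 ± 0.14 (edgeR adjusted p = 0.00111), in CtbpDKO against WT by 0.44 ± 0.14 (edgeR adjusted p = 0.0357), and in DKO_Dppa2KO against CtbpDKO by 0.47 ± 0.14 (edgeR adjusted p = 0.0366). DuxKO against WT gave 0.39 ± 0.14 (edgeR adjusted p = 0.0776). The CtbpDKO call was lost without either WT library or CtbpDKO replicate 1 (0.26 to 0.57), and the DKO_Dppa2KO call without CtbpDKO replicate 2 or DKO_Dppa2KO replicate 2 (0.32 to 0.65).

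Phlda3 (chr1:135766085-135769134), a repressor of Akt, was highest in DKO_Dppa2KO. It stood at 11.9 and 13.9 CPM in WT, 17.4 and 13.7 in CtbpDKO, 19.1 and 15.3 in DuxKO, 24.5 and 21.5 in Ctbp_DuxTKO, 17.9 and 16.4 in Dppa2KO, and 30.7 and 33 in DKO_Dppa2KO. The 2 lines that lack Ctbp together with Dux or Dppa2 did not overlap the others. Phlda3 rose in DKO_Dppa2KO by a log2 change of 1.03 ± 0.15 against CtbpDKO (edgeR adjusted p = 0.000579) and by 0.89 ± 0.15 against Dppa2KO (edgeR adjusted p = 0.000471). It rose in Ctbp_DuxTKO by 0.56 ± 0.15 against CtbpDKO (edgeR adjusted p = 0.0337) and by 0.42 ± 0.15 against DuxKO (edgeR adjusted p = 0.0369). The last 2 calls were lost, the first without CtbpDKO replicate 2 or Ctbp_DuxTKO replicate 1 (0.39 to 0.75) and the second without DuxKO replicate 2 or either Ctbp_DuxTKO library (0.24 to 0.58).

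Sesn2 (chr4:132492804-132510456), the sestrin gene that restrains mTORC1 and answers to p53 and to the stress factor Atf4, was called most often, in 11 of the 17 pairwise comparisons. It stood at 45.4 and 52.1 CPM in WT, 107 and 98.2 in CtbpDKO, 62.7 and 65.8 in DuxKO, 82.2 and 80.1 in Ctbp_DuxTKO, 60.9 and 62 in Dppa2KO, and 95 and 97.9 in DKO_Dppa2KO. Every mutant library was above both WT libraries. Against WT, Sesn2 rose 2.11-fold in CtbpDKO (log2 change 1.07 ± 0.09, edgeR adjusted p = 1.78e-06), by a log2 change of 0.40 ± 0.09 in DuxKO (edgeR adjusted p = 0.00885) and by 0.33 ± 0.09 in Dppa2KO (edgeR adjusted p = 0.024). Ctbp_DuxTKO was below CtbpDKO, with a log2 change of -0.34 ± 0.09 (edgeR adjusted p = 0.0357), and above DuxKO by 0.34 ± 0.09 (edgeR adjusted p = 0.00928). DKO_Dppa2KO was above Dppa2KO by 0.65 ± 0.09 (edgeR adjusted p = 0.000132). Some of these calls rested on single libraries. Without WT replicate 1 the calls of DuxKO and Dppa2KO against WT were lost, as were the former without DuxKO replicate 2 (0.31 to 0.51) and the latter without either Dppa2KO library (0.24 to 0.43). The call of Ctbp_DuxTKO was lost against CtbpDKO without any 1 of the 4 libraries (-0.40 to -0.27) and against DuxKO without DuxKO replicate 1 (0.30 to 0.35).

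Targets and partners of the stress factor Atf4 were read beside Sesn2. Of 12 Atf4-linked genes, 8 were higher and 0 lower in CtbpDKO than in WT, against 14.7% and 11.4% of all tested genes. Their median log2 change was 0.93, where that over all tested genes was 0.01. The lowest adjusted p belonged to Ddit4, an mTORC1 inhibitor (1.77 ± 0.15, edgeR adjusted p = 2.13e-06), Chac1, a glutathione-degrading enzyme (2.17 ± 0.19, edgeR adjusted p = 2.37e-06), and Trib3, a pseudokinase (1.40 ± 0.14, edgeR adjusted p = 5.76e-06). In DuxKO against WT 7 were higher and 0 lower, against 7.94% and 9.56% of all tested genes. In Dppa2KO against WT 5 were higher and 5 lower, against 7.67% and 8.69%. In Ctbp_DuxTKO 0 were higher and 7 lower than in CtbpDKO, against 3.6% and 4.54% of all tested genes. Trib3 led them at a log2 change of -1.38 ± 0.14 (edgeR adjusted p = 8.41e-05). Sesn2 was lower in that comparison too. In Ctbp_DuxTKO against DuxKO 1 of the 12 was higher and 7 lower (median log2 change -0.71), against 21.4% and 19.6% of all tested genes. Sesn2 rose by 0.34 there. In DKO_Dppa2KO against CtbpDKO 1 was higher and 6 lower, against 5.75% and 9.67%. Sesn2 was not called there (95 and 97.9 CPM against 107 and 98.2). In DKO_Dppa2KO against Dppa2KO 5 were higher and 1 lower, against 15.2% of all tested genes in each direction. Sesn2 rose by 0.65 there. The part of Atf4 in the Sesn2 values was not tested.

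Trp53inp1 (chr4:11156441-11174379), whose protein promotes autophagy and p53 phosphorylation, had the largest log2 change of any member in the 7 comparisons of the genotype table. It stood at 47.2 and 42.5 CPM in WT, 34.6 and 39.4 in CtbpDKO, 30 and 27.7 in DuxKO, 67.8 and 72.3 in Ctbp_DuxTKO, 49.7 and 54.2 in Dppa2KO, and 56.7 and 48.9 in DKO_Dppa2KO. DuxKO was below and Ctbp_DuxTKO above every other library. Loss of Dux went with a lower level in cells that have Ctbp (log2 change -0.64 ± 0.11, edgeR adjusted p = 0.00139) and with a higher level in cells without it (0.92 ± 0.11, edgeR adjusted p = 0.000248). Ctbp_DuxTKO was 2.43-fold above DuxKO (log2 change 1.28 ± 0.11, edgeR adjusted p = 1.05e-06). These 3 calls kept their side of the threshold without any 1 library. DKO_Dppa2KO was above CtbpDKO by 0.51 ± 0.11 (edgeR adjusted p = 0.00705), a call lost without CtbpDKO replicate 1 or DKO_Dppa2KO replicate 1 (0.40 to 0.61).

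Zmat3 (chr3:32334792-32365665), a zinc finger RNA-binding protein, stood at 64.1 and 68.7 CPM in WT, 51 and 51.4 in CtbpDKO, 67.2 and 67.3 in DuxKO, 87.1 and 85.9 in Ctbp_DuxTKO, 66.8 and 76.2 in Dppa2KO, and 66.7 and 60.9 in DKO_Dppa2KO. CtbpDKO was below and Ctbp_DuxTKO above every other library. Zmat3 fell in CtbpDKO against WT by 0.38 on the log2 scale (SE 0.09, edgeR adjusted p = 0.00782). It rose in Ctbp_DuxTKO by 0.76 ± 0.09 against CtbpDKO (edgeR adjusted p = 0.000292) and by 0.36 ± 0.09 against DuxKO (edgeR adjusted p = 0.00613). DKO_Dppa2KO was above CtbpDKO by 0.32 ± 0.09 (edgeR adjusted p = 0.033). The CtbpDKO call was lost without WT replicate 2 (-0.42 to -0.34), the call against DuxKO without DuxKO replicate 2 (0.34 to 0.35) and the DKO_Dppa2KO call without any 1 of its 4 libraries (0.25 to 0.38).

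**Figure D1:**
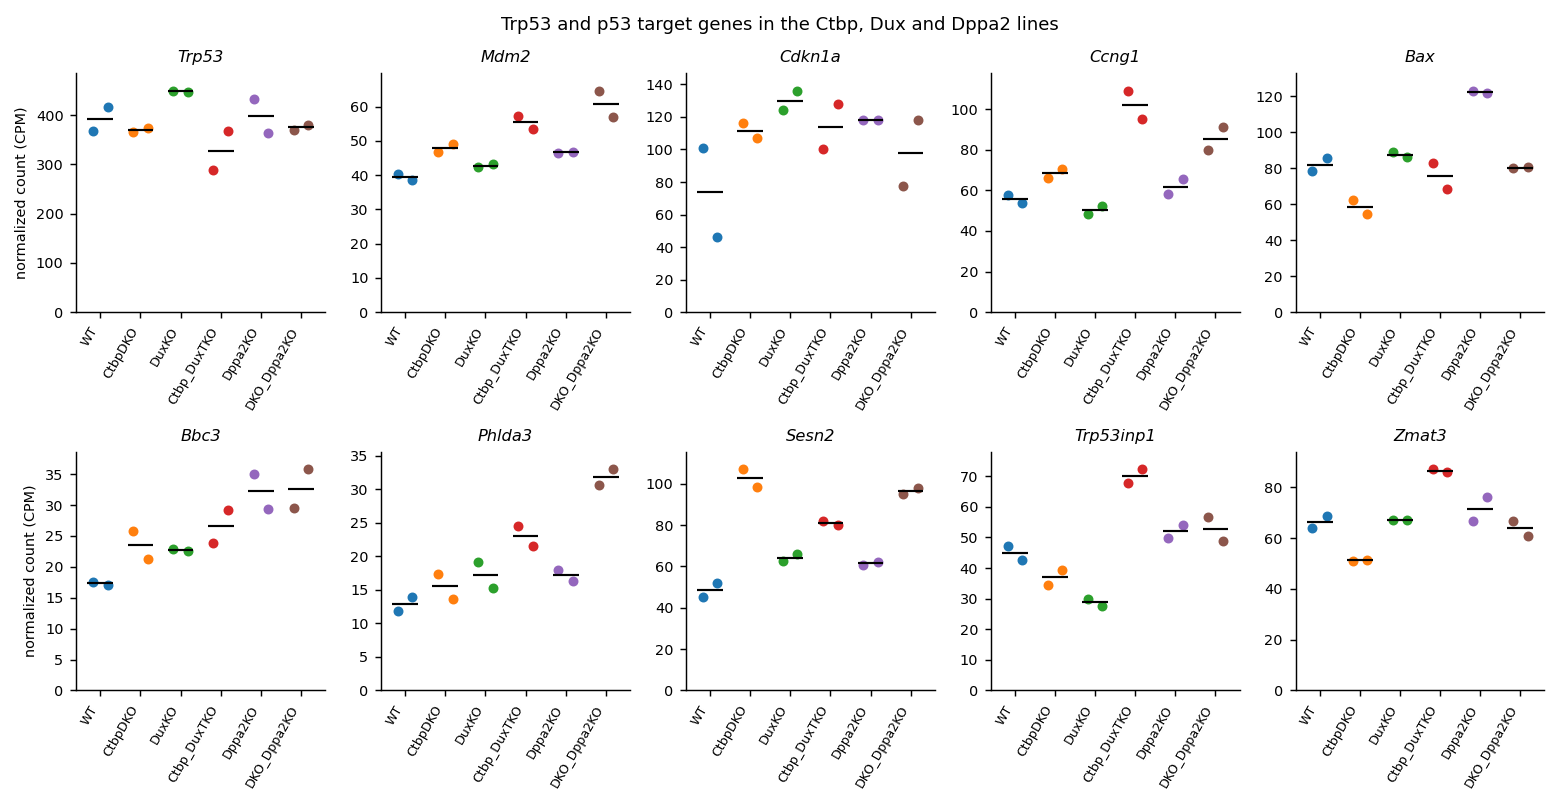
Normalized counts (CPM, vertical axes starting at 0) of the 10 genes in the 6 groups of the genotype table. Points are libraries and bars are means of 2 libraries. Trp53inp1 and Zmat3 are highest in Ctbp_DuxTKO, Phlda3 and Mdm2 have their highest means in DKO_Dppa2KO, and the WT points of Cdkn1a lie far apart, at 101 and 46.4.

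Counted by comparison, 5 of the 10 genes were called in CtbpDKO against WT (3 higher, 2 lower), where 26.1% of all tested genes were called (14.7% higher, 11.4% lower). In DuxKO against WT 1 was higher and 1 lower, where 17.5% of tested genes were called (7.94% higher, 9.56% lower). In Dppa2KO against WT 3 were higher and 0 lower, where 16.4% were called (7.67% higher, 8.69% lower). In Ctbp_DuxTKO against CtbpDKO 5 were higher and 1 lower, where 8.15% were called (3.6% higher, 4.54% lower). Against DuxKO the same line had 6 higher and 1 lower, where 41% were called (21.4% higher, 19.6% lower). In DKO_Dppa2KO against CtbpDKO 6 were higher and 0 lower, where 15.4% were called (5.75% higher, 9.67% lower). Against Dppa2KO it had 4 higher and 1 lower, where 30.4% were called (15.2% in each direction). These comparisons share control libraries. The median log2 change of the 10 genes was 0.29 in Ctbp_DuxTKO against CtbpDKO and 0.33 in DKO_Dppa2KO against CtbpDKO, where the median over all tested genes was 0.00 and -0.03. Leaving out any 1 library lowered the count to between 2 and 5 in Ctbp_DuxTKO against CtbpDKO and to between 2 and 3 in DKO_Dppa2KO against CtbpDKO. The genes called over the whole table fell at the same settings, from 1727 to between 558 and 1250 and from 3268 to between 1272 and 2058. The 6 listed endoderm markers (Gata4, Gata6, Sox17, Sox7, Foxa2 and Afp) summed to 45.1 and 48.6 CPM in Ctbp_DuxTKO, 17.3 and 17.8 in CtbpDKO, 2.34 and 2.83 in DuxKO, and 7.56 and 7.59 in DKO_Dppa2KO. Of the 5 endoderm markers tested, 4 were higher and 0 lower in Ctbp_DuxTKO than in CtbpDKO, and Afp was at 0 in the other 3 of these groups. The 5 trophoblast markers (Cdx2, Gata3, Eomes, Elf5 and Tfap2c) summed to 45.9 and 46.6 CPM in DKO_Dppa2KO, 26.5 and 26.6 in CtbpDKO, and 12.1 and 12.3 in Dppa2KO. Of 4 tested, 2 were higher in DKO_Dppa2KO than in CtbpDKO and 3 higher than in Dppa2KO, with 0 lower. All 5 tested markers of the 2-cell-like state were lower in DKO_Dppa2KO, where the 6 listed were at 0, than in CtbpDKO, where they summed to 28 and 35.6 CPM. All 5 were also lower in Ctbp_DuxTKO than in CtbpDKO, and the 6 listed summed to at most 0.26 CPM in Ctbp_DuxTKO. The part of these markers in the member values was not tested.

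The effect of Dux loss was compared directly between cells with and without Ctbp by an interaction term. It was called for 4 of the 10 genes, with 19.5% of all tested genes called (9.82% higher, 9.64% lower). For Trp53inp1 the interaction was 1.55 ± 0.15 on the log2 scale (edgeR adjusted p = 2.43e-05), for Zmat3 0.74 ± 0.13 (edgeR adjusted p = 0.00167) and for Ccng1 0.73 ± 0.15 (edgeR adjusted p = 0.00436), so each was higher in Ctbp_DuxTKO than the sum of the 2 separate changes. For Sesn2 it was -0.74 ± 0.13 (edgeR adjusted p = 0.00164), which is lower than that sum. The 4 calls held without any 1 of the 8 libraries. The interaction of Ctbp with Dppa2 was called for 0 of the 10 genes by edgeR, where 8.23% of all tested genes were called (3.23% higher, 5% lower), and 3 of the 10 had an unadjusted p under 0.05. The nearest was Sesn2, at -0.42 ± 0.13 (edgeR adjusted p = 0.0588), which DESeq2 called (adjusted p = 0.0437).

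A further list of 30 genes known as p53 targets, of which 29 were tested, was read in the same lines. In CtbpDKO against WT 9 were higher and 5 lower, against 14.7% and 11.4% of all tested genes. Higher were Plk3, a polo-like kinase (log2 change 1.92 ± 0.11, edgeR adjusted p = 3.09e-08), Ak1, an adenylate kinase (1.82 ± 0.11, edgeR adjusted p = 9.21e-08), and Gdf15, a secreted stress cytokine (2.33 ± 0.23, edgeR adjusted p = 5.5e-06), and lower was Psrc1 (-0.82 ± 0.09, edgeR adjusted p = 1.21e-05). In DuxKO against WT 9 were higher and 2 lower, against 7.94% and 9.56% of all tested genes. Pmaip1, which encodes the BH3-only protein Noxa, was higher there by 1.36 ± 0.16 (edgeR adjusted p = 7.92e-05). The DuxKO libraries of the Pramel7 table went the other way. There 1 of the 29 was higher and 7 lower than in WT, against 7.76% and 8.91% of all tested genes. In Dppa2KO against WT 8 were higher and 0 lower, against 7.67% and 8.69% of all tested genes. In Ctbp_DuxTKO against CtbpDKO 4 were higher and 4 lower, against 3.6% and 4.54%. In DKO_Dppa2KO against CtbpDKO 12 were higher and 2 lower, against 5.75% and 9.67%. Perp, a desmosomal protein, was higher there by 1.59 ± 0.17 (edgeR adjusted p = 6.06e-05).

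Among 25 tested regulators of p53, Cdkn2a, whose Arf product inhibits Mdm2, rose in Dppa2KO. It stood at 5.9 and 5.22 CPM in WT and 18.2 and 18.4 in Dppa2KO, with no overlap (log2 change 1.72 ± 0.15, edgeR adjusted p = 1.09e-05). Cdkn2a was also higher than in WT in CtbpDKO (0.71 ± 0.15, edgeR adjusted p = 0.00298) and DuxKO (0.63 ± 0.15, edgeR adjusted p = 0.0108). The CtbpDKO call was lost without CtbpDKO replicate 1, and the DuxKO call without WT replicate 2 or DuxKO replicate 1. Cdkn2a was lower in DKO_Dppa2KO than in Dppa2KO (-1.01 ± 0.14, edgeR adjusted p = 0.000154). In Dppa2KO against WT 3 of the 25 regulators were higher and 3 lower, against 7.67% and 8.69% of all tested genes. In CtbpDKO against WT 5 were higher and 5 lower, against 14.7% and 11.4% of all tested genes. Trp53bp1, a DNA damage adaptor, was lower there, with a log2 change of -0.69 ± 0.09 (edgeR adjusted p = 0.000123).

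In the Pramel7 table the WT libraries fell into pairs. Replicates 5 and 6 differed from replicates 3 and 4 in 11.5% of 20161 tested genes, and no label names a batch. Zmat3 was higher in replicates 5 and 6 by a log2 change of 1.17 (edgeR adjusted p = 0.000946), Trp53 by 0.47 (edgeR adjusted p = 0.037), and Bbc3 was lower, at -0.47 (edgeR adjusted p = 0.0483). The other 7 genes were not called between the pairs. Values against each WT pair are given where they change a call.

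DuxKO was sequenced again in this table, with libraries that the genotype table does not hold. Trp53inp1 was lower again. It stood at 72.6, 68.7, 74.4 and 76.9 CPM in WT and 43.7 and 45.9 in DuxKO, with no overlap and a log2 change of -0.71 ± 0.11 (edgeR adjusted p = 0.00106). The call held without any 1 library and against either WT pair (-0.70 against replicates 3 and 4, -0.78 against 5 and 6). Ccng1 fell by 0.60 (SE 0.13, edgeR adjusted p = 0.00578), from 101, 106, 84.1 and 109 CPM in WT to 66.3 and 65.2 in DuxKO. Phlda3 fell by 0.64 (SE 0.15, edgeR adjusted p = 0.00958), from 48.3, 39.7, 37.3 and 34 CPM to 23.3 and 27.6. Neither gene overlapped between groups, though the Ccng1 call was lost without either DuxKO library (-0.71 to -0.58) and the Phlda3 call without DuxKO replicate 3 (-0.77 to -0.54). In all, 0 of the 10 genes were higher and 3 lower, where 16.7% of tested genes were called (7.76% higher, 8.91% lower). Cdkn1a, at 165, 78.4, 115 and 124 CPM in WT and 49.8 and 101 in DuxKO, gave -0.67 ± 0.29 (edgeR adjusted p = 0.139), and it was called without DuxKO replicate 4 (-1.28, edgeR adjusted p = 0.0428), without WT replicate 4 (-0.84, edgeR adjusted p = 0.0486) and without the filter on low counts (-0.68, edgeR adjusted p = 0.00064). Against WT replicates 3 and 4 alone 7 were called, Trp53 among them at 0.52 higher (edgeR adjusted p = 0.00256), but against replicates 5 and 6 Trp53 differed by 0.07 (edgeR adjusted p = 0.77).

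On Pramel7 overexpression in cells with Dux, the share of the 10 genes called was near that of all tested genes. In P7OE against WT 2 of the 10 were higher and 0 lower, where 19.9% of tested genes were called (11% higher, 8.9% lower). Mdm2 stood at 63.6, 64.8, 69.2 and 63.3 CPM in WT and 80 and 88.4 in P7OE (log2 change 0.37 ± 0.10, edgeR adjusted p = 0.0229). Sesn2 stood at 110, 92.9, 98.6 and 86.5 CPM in WT and 125 in both P7OE libraries (0.37 ± 0.12, edgeR adjusted p = 0.0443). Both were above every WT library. The Mdm2 call was lost without WT replicate 3 or either P7OE library (0.31 to 0.43) and against WT replicates 5 and 6 alone (0.32, edgeR adjusted p = 0.0541). The Sesn2 call was lost without WT replicate 4 or 5 or either P7OE library (0.32 to 0.41) and against WT replicates 3 and 4 alone (0.26, edgeR adjusted p = 0.0783). Zmat3, at 38.7, 37.7, 68.5 and 104 CPM in WT and 83.7 and 103 in P7OE, gave 0.59 ± 0.31 (edgeR adjusted p = 0.211). That value was 1.25 against WT replicates 3 and 4 (edgeR adjusted p = 6.33e-06), 0.10 against replicates 5 and 6, and 0.96 without WT replicate 6 (edgeR adjusted p = 0.00541).

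Pramel7 overexpression was also compared in cells without Dux, where Pramel7 RNA was higher (49.3 and 56.7 CPM in DuxKO_P7OE) than in P7OE (14 and 26.2 CPM). In DuxKO_P7OE against DuxKO 4 of the 10 genes were higher and 0 lower, where 21.4% of tested genes were called (11.6% higher, 9.83% lower). Ccng1 stood at 66.3 and 65.2 CPM in DuxKO and 140 and 135 in DuxKO_P7OE, which is 2.09-fold higher (log2 change 1.07 ± 0.14, edgeR adjusted p = 0.000284). Trp53inp1 rose from 43.7 and 45.9 to 69.2 and 81.4 CPM (0.75 ± 0.13, edgeR adjusted p = 0.00154). Sesn2 rose from 93.1 and 86 to 135 and 153 CPM (0.69 ± 0.14, edgeR adjusted p = 0.00394). Mdm2 rose from 54.1 and 53.7 to 74.9 and 74.2 CPM (0.47 ± 0.12, edgeR adjusted p = 0.0153). None of the 4 overlapped between groups. The Mdm2 call was lost without any 1 of its 4 libraries (0.45 to 0.48), and the Sesn2 call without DuxKO replicate 4 (0.59 to 0.78).

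Chromosome 11, which holds Ccng1, had a raised median in the line that carries both changes. Over chromosome 11, the median log2 change was 0.22 in DuxKO_P7OE against DuxKO and 0.26 against P7OE, where the median over all chromosomes was -0.07 and -0.03. Trp53 lies on the same chromosome and stood at 414 and 428 CPM in DuxKO and 398 and 366 in DuxKO_P7OE. The part of the chromosome 11 shift in the Ccng1 value was not tested. The interaction of Dux loss with Pramel7 overexpression was called for 1 of the 10 genes, Ccng1 (0.81 ± 0.19, edgeR adjusted p = 0.0215), where 7.5% of tested genes were called (4.27% higher, 3.23% lower) and chromosome 11 had a median of 0.26 in the same term. That call was lost without any 1 of the DuxKO, P7OE and DuxKO_P7OE libraries (0.71 to 0.92). In DuxKO_P7OE against P7OE edgeR called 0 of the 10 genes and 0.0298% of all tested genes, DESeq2 called 0 of the 10, and 0 had an unadjusted p under 0.05. The 4 tested markers of the 2-cell-like state were not called there either, at a median log2 change of -8.92. The 6 listed summed to 11.2 to 14 CPM in P7OE and were at 0 in DuxKO_P7OE. The lack of a call in this comparison therefore does not show equal levels. All 5 tested endoderm markers were higher in P7OE than in WT and in DuxKO_P7OE than in DuxKO. The 6 listed summed to 27.7 and 28.5 CPM in P7OE and to 26.8 and 26.9 in DuxKO_P7OE, against at most 4.23 in WT and 3.21 in DuxKO, with Afp at 0 in WT, DuxKO and DuxKO_P7OE. Of the 2-cell-like markers, all 4 tested were higher in P7OE than in WT, where the 6 listed summed to 0.5 to 1.4 CPM. In DuxKO_P7OE against DuxKO 0 of the 4 were called. The part of the endoderm and 2-cell-like markers in the member values was not tested.

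Loss of Pramel7 went with lower levels of 4 p53 targets and a higher level of Trp53. In P7KO against WT 5 of the 10 genes were called, 1 higher and 4 lower, where 9.48% of tested genes were called (3.93% higher, 5.55% lower). Phlda3 stood at 48.3, 39.7, 37.3 and 34 CPM in WT and 17.3 and 16.5 in P7KO, which is 2.36-fold lower (log2 change -1.24 ± 0.15, edgeR adjusted p = 0.000262). Ccng1 stood at 101, 106, 84.1 and 109 CPM in WT and 47.1 and 48.1 in P7KO, which is 2.1-fold lower (-1.07 ± 0.13, edgeR adjusted p = 0.000248). Both held without any 1 library and against either WT pair. Sesn2 fell from 110, 92.9, 98.6 and 86.5 CPM to 58.1 and 60.1 (-0.71 ± 0.12, edgeR adjusted p = 0.00278), and Mdm2 from 63.6, 64.8, 69.2 and 63.3 to 51 and 48.9 (-0.39 ± 0.10, edgeR adjusted p = 0.0356). None of the 4 overlapped between groups. The Sesn2 call was lost without P7KO replicate 1 (-0.80 to -0.66), and the Mdm2 call without WT replicate 4 or either P7KO library (-0.43 to -0.35).

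Trp53 stood at 297, 275, 450 and 342 CPM in WT and 519 and 562 in P7KO, with no overlap (log2 change 0.67 ± 0.17, edgeR adjusted p = 0.0246). The value was 0.89 against WT replicates 3 and 4 (edgeR adjusted p = 3.52e-05) and 0.44 against replicates 5 and 6 (edgeR adjusted p = 0.0695). The call was lost without WT replicate 3 or 4 or either P7KO library (0.55 to 0.81). Cdkn1a stood at 165, 78.4, 115 and 124 CPM in WT and 93.2 and 107 in P7KO, and the groups overlapped. Bax, at 152, 147, 137 and 162 CPM in WT, was at 126 and 130 in P7KO and was not called. Bbc3, at 35.3, 33.9, 25.4 and 24.7 CPM in WT and 26.5 and 20.9 in P7KO, gave -0.33 ± 0.18 (edgeR adjusted p = 0.279) and, against WT replicates 3 and 4 alone, -0.57 (edgeR adjusted p = 0.0078).

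The wider pathway was also read in P7KO, where 3.93% of all tested genes were higher and 5.55% lower than in WT. Of 29 tested other p53 targets, 1 was higher and 6 lower, with Perp lower by a log2 change of -1.55 ± 0.18 (edgeR adjusted p = 0.000193). Of 26 regulators, 1 was higher and 3 lower. Cdkn2a stood at 4.92, 5.83, 7.23 and 6.14 CPM in WT and 1.13 and 1.18 in P7KO, a log2 change of -2.38 ± 0.24 (edgeR adjusted p = 6.11e-05) with no overlap. In P7OE against WT 8 other targets were higher and 3 lower, against 11% and 8.9% of all tested genes. In DuxKO_P7OE against DuxKO 8 were higher and 1 lower, against 11.6% and 9.83% of all tested genes. Ephx1, an epoxide hydrolase (3.18 ± 0.36, edgeR adjusted p = 8.64e-05), and Plk3 (2.08 ± 0.27, edgeR adjusted p = 0.000209) led the higher ones. Of the 12 Atf4-linked genes, 2 were higher and 2 lower in P7KO against WT, and 2 were higher and 0 lower in DuxKO_P7OE against DuxKO.

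**Figure D2:**
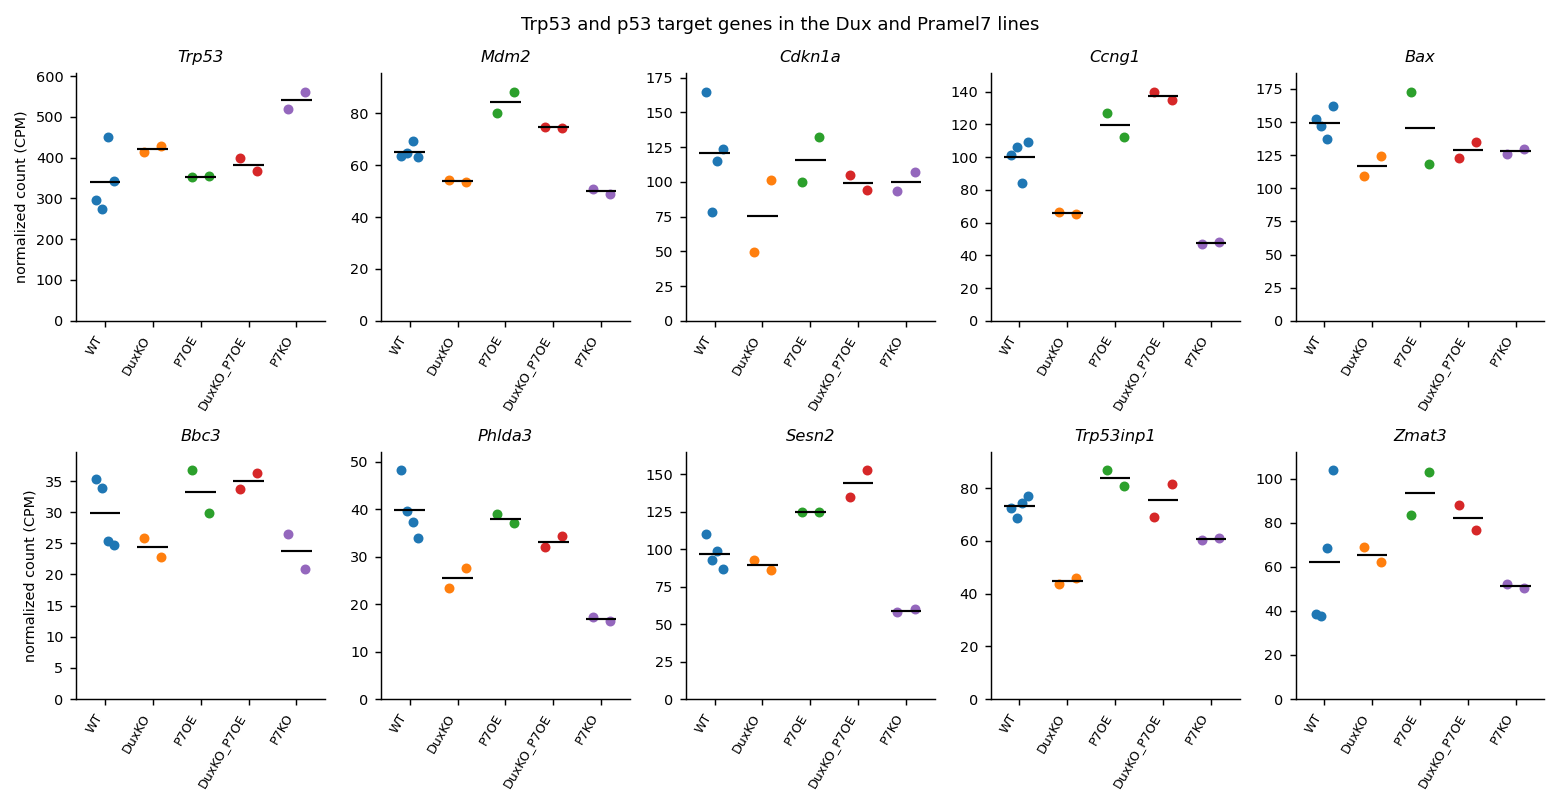
Normalized counts (CPM, vertical axes starting at 0) of the 10 genes in the 5 groups of the Pramel7 table. Points are libraries (4 in WT, in the order of replicates 3 to 6, and 2 elsewhere) and bars are group means. Ccng1, Phlda3, Sesn2 and Mdm2 are lowest in P7KO, at or below 60.1 CPM in both its libraries, while Trp53 is highest there at 519 and 562.

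In the time course of CtbpDKO cells, Sesn2 and Zmat3 rose from day 0 to day 3, when Ctbp2 was high, and 6 of the 10 genes fell from day 9 to day 12. Sesn2 stood at 109 and 124 CPM at day 0, 180 and 174 at day 3, 180 and 178 at day 9, 124 and 121 at day 12, and 124 and 105 at day 18. Zmat3 stood at 56.5 and 68.9 CPM at day 0, 85.6 and 84.2 at day 3, 90.9 and 94.3 at day 9, 58.5 and 63 at day 12, and 61.6 and 55.7 at day 18. For both genes the libraries of days 3 and 9 did not overlap those of the other days. From day 0 to day 3 these 2 of the 10 genes were called, where 4.99% of tested genes were called (2.41% higher, 2.59% lower). Sesn2 rose by a log2 change of 0.60 ± 0.11 (edgeR adjusted p = 0.00715), a call lost without day 0 replicate 1 or day 3 replicate 1 (0.51 to 0.69). Zmat3 rose by 0.44 ± 0.11 (edgeR adjusted p = 0.0373), a call lost without day 0 replicate 1 or either day 3 library (0.30 to 0.59).

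Trp53inp1 stood at 76.8 and 76.2 CPM at day 0, 91.9 and 102 at day 3, 101 and 102 at day 9, 64.3 and 62.7 at day 12, and 58 and 57.7 at day 18. From day 0 to day 3 its log2 change was 0.34 ± 0.10 (edgeR adjusted p = 0.0555), and DESeq2 called it (adjusted p = 0.0279). Over the same step Mdm2 gave 0.33 ± 0.10 (edgeR adjusted p = 0.0719), Ccng1 0.32 ± 0.11 (edgeR adjusted p = 0.108) and Phlda3 0.36 ± 0.14 (edgeR adjusted p = 0.163). None of these was called. Both day 3 libraries were above both of day 0 for each of them and for Bax (edgeR adjusted p = 0.249). How many of all tested genes separate in this way was not counted. From day 3 to day 9, edgeR called 0 of the 10 genes and 1.12% of all tested genes, DESeq2 called 0 of the 10, and 1 had an unadjusted p under 0.05.

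From day 9 to day 12, when Ctbp2 went from 310 and 296 CPM to 49.4 and 44.7, 6 of the 10 genes fell and 0 rose, where 3.84% of tested genes were called. Trp53inp1 fell by 0.68 on the log2 scale (SE 0.10, edgeR adjusted p = 0.00157), a call that held without any 1 library. Zmat3 fell by 0.61 (SE 0.11, edgeR adjusted p = 0.00715), a call lost without day 9 replicate 2 or either day 12 library (-0.68 to -0.56). Ccng1 went from 117 and 137 to 89.1 and 84.4 CPM and fell by 0.55 (SE 0.11, edgeR adjusted p = 0.0104), a call lost without the same 3 libraries (-0.66 to -0.43). Sesn2 fell by 0.55 (SE 0.11, edgeR adjusted p = 0.0138). Phlda3 went from 25 and 29.1 to 19 and 17.7 CPM and fell by 0.56 (SE 0.13, edgeR adjusted p = 0.0333). Mdm2 went from 91.3 and 84.9 to 65.3 and 67.8 CPM and fell by 0.40 (SE 0.10, edgeR adjusted p = 0.0356). The calls of Sesn2 (-0.56 to -0.54), Phlda3 (-0.67 to -0.45) and Mdm2 (-0.46 to -0.36) were lost without any 1 of the 4 libraries. No library of day 12 overlapped day 9 in any of the 6 genes. With 1 library left out, 1 to 3 of the 10 genes were called, and the genes called over the whole table fell from 791 to between 210 and 303. Markers of other cell types moved at this step. The endoderm markers summed to 11.4 and 11.5 CPM at day 9 and 18.3 and 21 at day 12 (2 of 5 tested higher, 0 lower, Afp at 0 on both days), and the 7 fibroblast markers to 9.95 and 11.7 and to 18.1 and 18.8 (1 of 3 tested higher, 0 lower). The trophoblast markers summed to 37.6 and 40.8 CPM and to 43.6 and 45.4 (1 of 4 tested higher, 0 lower). The part of these markers in the member values was not tested.

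Trp53 itself stayed between 302 and 382 CPM over the 10 libraries of the time course and was not called at any step. Cdkn1a stood at 103 and 175 CPM at day 0, 80.7 and 106 at day 3, 147 and 234 at day 9, 162 and 86.3 at day 12, and 93.4 and 124 at day 18. From day 3 to day 9 it gave 1.03 ± 0.30 (edgeR adjusted p = 0.137), which edgeR called without the filter on low counts (adjusted p = 2.03e-13). Its steps from day 0 to day 3 (-0.57 ± 0.30, edgeR adjusted p = 0.322) and from day 9 to day 12 (-0.62 ± 0.30, edgeR adjusted p = 0.323) were also called only without that filter (-0.57 at an edgeR adjusted p of 0.000453 and -0.63 at 6.35e-05). Cdkn1a passes the filter, so its own counts were the same in both fits. Bbc3 stood between 26.6 and 48.5 CPM and Bax between 72.5 and 105 CPM, and neither was called at any step. From day 12 to day 18 edgeR called 0 of the 10 genes (0.82% of tested genes), with 0 by DESeq2 and 1 at an unadjusted p under 0.05. Day 18 against day 0 also called 0 (0.514% of tested genes), with 3 at an unadjusted p under 0.05 and 1, Trp53inp1, by DESeq2 (adjusted p = 0.0248). In that comparison both day 18 libraries were below both of day 0 for Trp53inp1 (-0.40 ± 0.10, edgeR adjusted p = 0.103), Phlda3 (-0.46 ± 0.14, edgeR adjusted p = 0.179) and Bbc3 (-0.45 ± 0.12, edgeR adjusted p = 0.145). The same held for Ccng1 (edgeR adjusted p = 0.511). The share of all tested genes separated in this way was not counted.

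Other lists were read over the same steps. Of all tested genes, 2.41% were higher and 2.59% lower at day 3 than at day 0. At day 12, 1.87% were higher and 1.97% lower than at day 9. From day 9 to day 12, 0 of 29 other p53 targets were higher and 6 lower, with Plk2, a polo-like kinase, lower by a log2 change of -0.73 ± 0.12 (edgeR adjusted p = 0.00335) and Btg2, an antiproliferative gene, by -0.72 ± 0.13 (edgeR adjusted p = 0.00572). The Plk2 call was lost without day 12 replicate 2 (-0.80 to -0.68) and the Btg2 call without either day 12 library (-0.74 to -0.72). None of the 25 regulators was called at that step. Of 12 Atf4-linked genes, 3 were higher and 0 lower at day 3 than at day 0, and 0 were higher and 3 lower at day 12 than at day 9. The Atf4-linked Ddit4 stood at 56.6 and 64.3 CPM at day 0, 135 and 130 at day 3, 113 and 124 at day 9, and 56.5 and 59.5 at day 12, and the part of these genes in the member values was not tested.

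**Figure D3:**
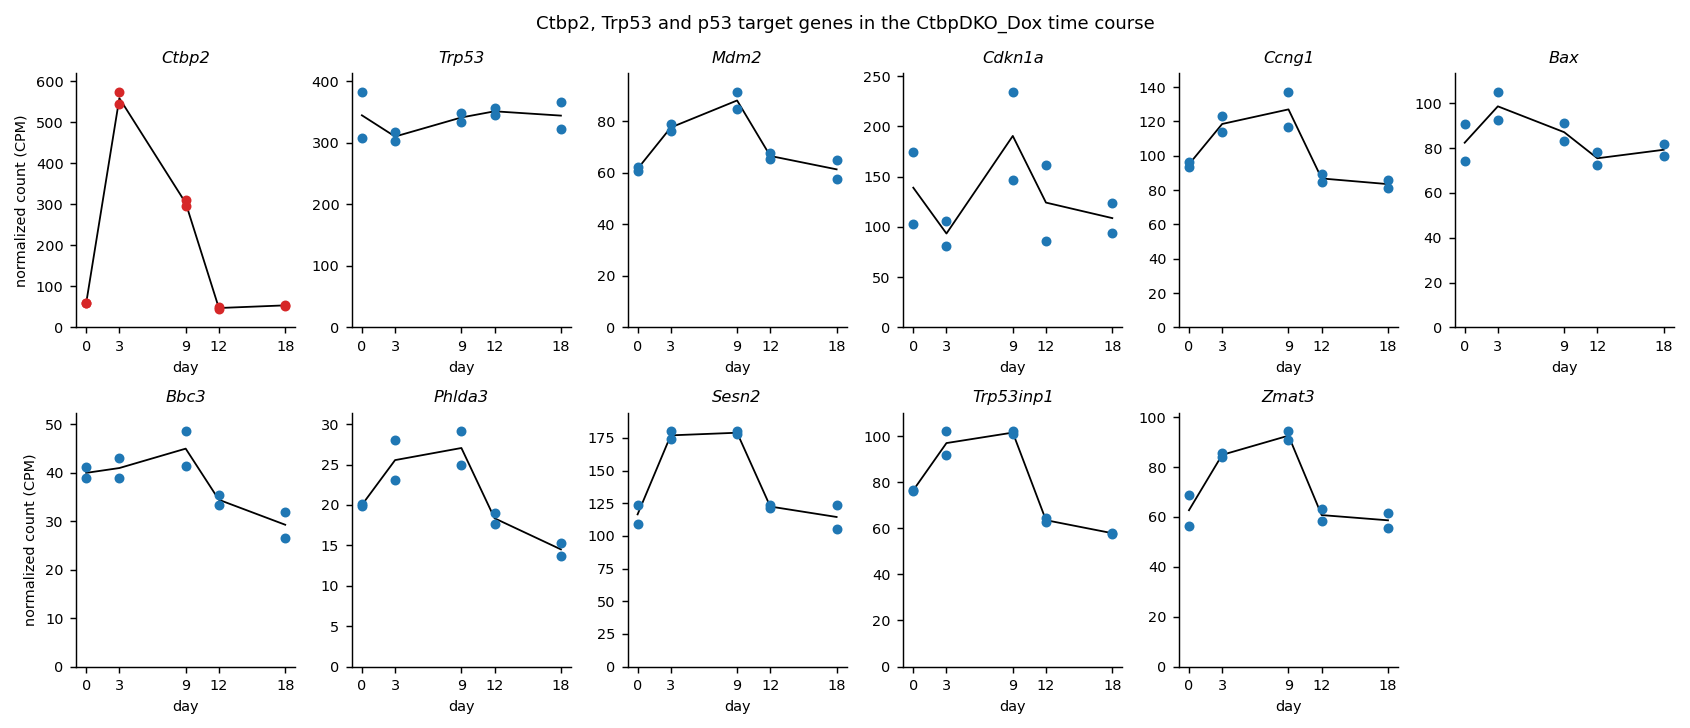
Normalized counts (CPM, vertical axes starting at 0) of Ctbp2 (red) and the 10 genes (blue) by day of the CtbpDKO time course. Points are libraries and lines join the means of 2 libraries. Ctbp2 peaks at 544 and 573 CPM at day 3, and the points of Sesn2, Zmat3, Trp53inp1, Ccng1 and Mdm2 at days 3 and 9 lie above those at days 0, 12 and 18.

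Over all 17 pairwise comparisons, Sesn2 was called in 11, Mdm2 in 8, Ccng1, Trp53inp1 and Phlda3 in 7 each, Zmat3 in 6, Bax in 5, Bbc3 in 3, Trp53 in 2 and Cdkn1a in 0. Sesn2 rose in 8 and fell in 3 of them, and Mdm2 rose in 6 and fell in 2. Trp53 was called in the direction opposite to most called targets both times, lower in Ctbp_DuxTKO against DuxKO with 6 targets higher and 0 lower, and higher in P7KO against WT with 4 targets lower and 0 higher. The first call was lost without Ctbp_DuxTKO replicate 1, and the second without any 1 of 4 libraries and against WT replicates 5 and 6 alone (0.44, edgeR adjusted p = 0.0695). Trp53 log2 changes ran from -0.45 to 0.67, those of Trp53inp1 from -0.71 to 1.28 and those of Phlda3 from -1.24 to 1.03. The comparisons share libraries and are not independent of each other.

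**Figure D4:**
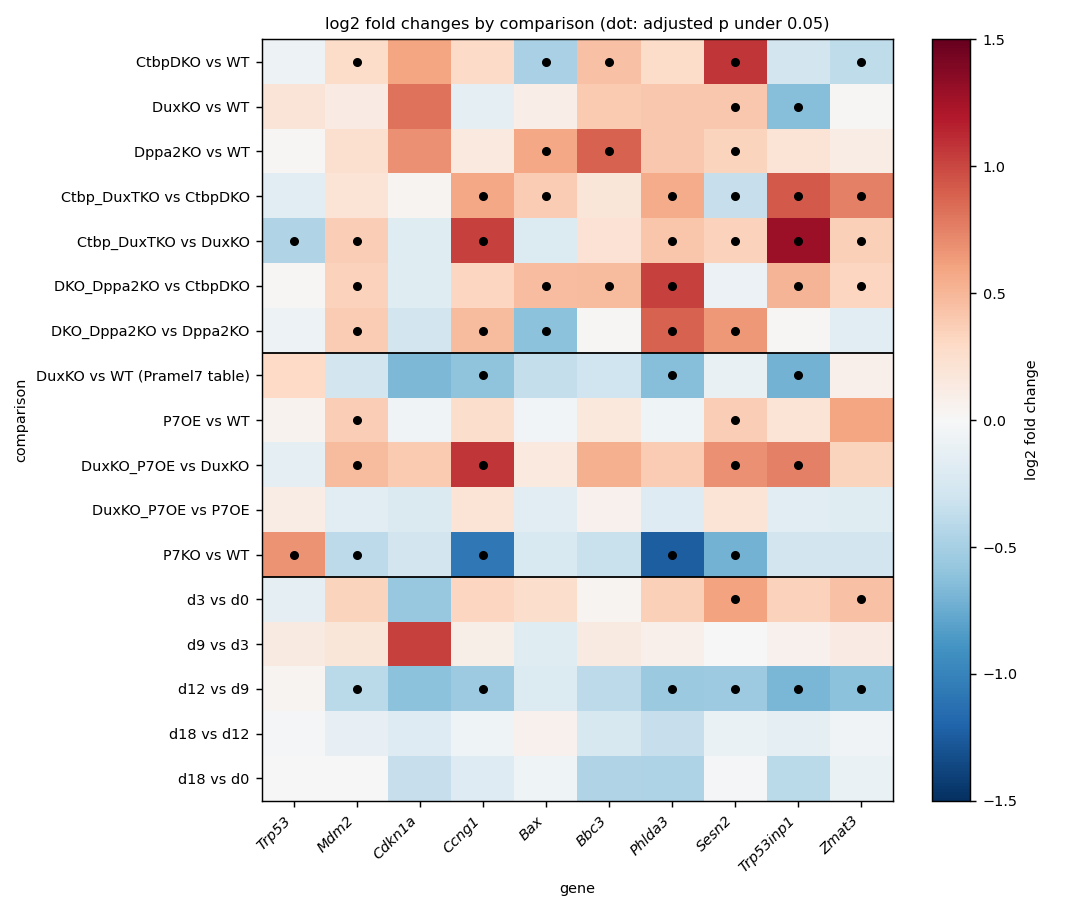
Colour gives the log2 fold change of each of the 10 genes (columns) in each of the 17 pairwise comparisons (rows, with lines between the 3 tables), red for higher and blue for lower in the first-named group. Black dots mark an edgeR adjusted p under 0.05. The Cdkn1a column has no dot, and the Trp53inp1 cell of Ctbp_DuxTKO against DuxKO is the deepest red, at 1.28.

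The genes most like Trp53 and Cdkn1a were sought among 18907 genes tested in all 3 tables, by Pearson's r over the 34 libraries of log2 CPM set relative to WT or day 0 of the same table. Nearest to Trp53 were Snrpa (0.85), Gstm1, Gm49909 and Pik3r4 (0.84 each) and Atad3a (0.83). Nearest to Cdkn1a were the pseudogene Rpl35a-ps3 (0.81), Nrk (0.73), Snrpa1 (0.72), and Rps27l and Cetn3 (0.70 each). The points share libraries, controls and depth, and the values are a description.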

How the data were processed

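RNA was measured in 34 libraries, and the authors deposited raw read counts per gene in 3 tables. Per the submitters' processing notes, reads passed through Trim Galore, HISAT2 and featureCounts on mm10. Versions, annotation, strand setting and filters are not given in the sources used here, although per the labels the library kit keeps strand. In the annotation the Zmat3 locus overlaps a long non-coding RNA locus. The 6 bisulfite libraries were not analysed here.

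Each table was fitted once with edgeR 4.0.16 in R 4.3.3 (quasi-likelihood test, TMM factors, filterByExpr, all groups sharing 1 estimate of spread), with Benjamini-Hochberg adjustment over all 21193, 20161 or 20612 tested genes and calls at an adjusted p under 0.05. Libraries held 19944644 to 36025046 counts in the genotype table, 10123058 to 30135341 in the Pramel7 table and 16674526 to 30169626 in the time course. Standard errors are the log2 change divided by the root of the F statistic. CPM is the count divided by the library size times its TMM factor. Alternatives were DESeq2 1.42.0, relative log expression factors, no low-count filter, a replicate block, each WT pair alone and each library left out. The code was tested on simulated data.

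Named genes are the 10 members, the targeted genes, up to 3 genes per direction and comparison with the lowest adjusted p from the lists of other p53 targets, p53 regulators and Atf4-linked genes, and the 5 genes most like Trp53 or Cdkn1a in pattern. Fold changes of uncalled genes are printed from a log2 change of 0.3. The members and lists were chosen with earlier results of these data known.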

Additional observations from a re-analysis of the deposited data

Results flagged for a closer look

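The effect of Dux loss differed between cells with and without Ctbp for 4 of the 10 genes by the interaction term in edgeR. The interaction was 1.55 on the log2 scale for Trp53inp1 (adjusted p = 2.43e-05), 0.74 for Zmat3 (adjusted p = 0.00167), 0.73 for Ccng1 (adjusted p = 0.00436) and -0.74 for Sesn2 (adjusted p = 0.00164). For Trp53inp1 the change on Dux loss was -0.64 with Ctbp and 0.92 without it. Both DuxKO libraries were below both WT libraries, and both Ctbp_DuxTKO libraries were above both CtbpDKO libraries.

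The effect of Pramel7 overexpression differed between cells with and without Dux for Ccng1, by 0.81 on the log2 scale (edgeR adjusted p = 0.0215). The call was lost without any 1 of 6 libraries (0.71 to 0.92), and the median of chromosome 11, which holds Ccng1, was 0.26 in the same term. Pramel7 RNA stood at 49.3 and 56.7 CPM in DuxKO_P7OE and at 14 and 26.2 in P7OE. The part of either in the Ccng1 value was not tested.

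For Phlda3, Mdm2 and Bax the DuxKO libraries lay above all WT libraries in the genotype table and below all of them in the Pramel7 table. The share of all tested genes that do the same was not counted. The log2 change in the Pramel7 table was -0.64 for Phlda3 (edgeR adjusted p = 0.00958), and -0.27 for Mdm2 (edgeR adjusted p = 0.0941) and -0.36 for Bax (edgeR adjusted p = 0.123) were not called. None of the 3 was called in the genotype table, where Phlda3 gave 0.41 (edgeR adjusted p = 0.0754), Mdm2 0.12 (edgeR adjusted p = 0.414) and Bax 0.10 (edgeR adjusted p = 0.584). The difference between the tables was not tested, since they were normalized separately. Trp53inp1 was lower in DuxKO in both tables.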

How the results depend on the processing

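Over the settings other than left-out libraries, the 61 called member results gave 254 values, of which 238 kept direction and call, 16 lost the call and 0 reversed. Over left-out libraries they gave 286 values, of which 98 lost the call and 0 reversed, and 37 of the 61 lost their call without at least 1 library. Genes of the other lists gave 852 values under other settings (24 lost calls, 0 reversals). The number of the 10 genes called changed as follows. With no low-count filter it was 5 in DuxKO against WT, 5 in Dppa2KO against WT, 2 in the interaction of Ctbp with Dppa2, 1 in P7OE against WT and 1 from day 3 to day 9. With DESeq2 it was 1 in the interaction of Ctbp with Dppa2, 2 in that of Dux with Pramel7 overexpression and 1 at day 18 against day 0. Against WT replicates 3 and 4 only it was 7 for DuxKO and 5 for the interaction of Dux with Pramel7 overexpression, and against replicates 5 and 6 only it was 1 for P7OE and 2 for that interaction. With a replicate block it was 7 in DuxKO against WT of the Pramel7 table, where the block keeps only replicates 3 and 4, and 1 at day 3 against day 0. With 1 library left out, the lone library of a group being assumed to vary like the other groups, the count ran from 2 to 4 in CtbpDKO, 1 to 2 in DuxKO and 2 to 3 in Dppa2KO against WT, from 2 to 5 and 5 to 6 in Ctbp_DuxTKO against CtbpDKO and DuxKO, and from 2 to 3 and 4 to 5 in DKO_Dppa2KO against CtbpDKO and Dppa2KO. It ran from 4 to 5 and 0 to 1 in the interactions of Ctbp with Dux and Dppa2, 1 to 4 in DuxKO of the Pramel7 table, 0 to 3 in P7OE, 2 to 3 in DuxKO_P7OE against DuxKO, 2 to 5 in P7KO, 0 to 1 in the interaction of Dux with Pramel7 overexpression, 0 to 2 from day 0 to day 3, and 1 to 3 from day 9 to day 12. Cdkn1a in DuxKO_P7OE against DuxKO reversed from 0.39 to -0.02 without DuxKO replicate 3 (-0.02 to 0.99), and at day 18 against day 0 from -0.35 to 0.09 without day 0 replicate 2 (-0.69 to 0.09). The cause of these changes was not tested. Same-numbered libraries did not deviate together (correlations from -0.10 to 0.06 in the genotype table and -0.08 to 0.09 in the time course), so the numbers were not taken as pairs. With 1 library left out, counts of all called genes fell as low as 558 from 1727 in Ctbp_DuxTKO against CtbpDKO, 1825 from 3707 in DuxKO against WT, 1272 from 3268 in DKO_Dppa2KO against CtbpDKO, 518 from 1911 in P7KO against WT and 210 from 791 from day 9 to day 12, so the shares of called genes beside the member counts fall as well. Under other settings, counts of all called genes moved by over 1.5 times in the Pramel7 table against WT replicates 3 and 4 only (6124 in P7OE, 4693 in P7KO, 3184 in the interaction), against replicates 5 and 6 (2763 in the interaction), in DuxKO_P7OE against P7OE (350 with no filter, 147 with DESeq2, 136 with the block) and in the time course with no filter (1634, 789, 1361, 652 and 566 for the 5 comparisons in order), DESeq2 (393 from day 3 to day 9, 224 at day 18 against day 0) and the block (112 from day 12 to day 18).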
